A study of Homo sapiens with 8 samples.

Results

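The 10 genes described here encode 3 precursors or subunits of the transcription factor NF-κB (NFKB1, NFKB2 and RELB), 2 IκB inhibitors that hold it in the cytoplasm (NFKBIA and NFKBIE), 3 proteins of the ubiquitin signalling that surrounds it (TNFAIP3, TNIP1 and BIRC3), the TNF-induced gene TNFAIP2 and the mitochondrial superoxide dismutase SOD2. They were taken by symbol from the 50006 genes of the count files, which held all 10, and all 10 passed the filter on low counts that left 16307 genes for testing. RNA was sequenced from BEAS-2B, an immortalised line of human bronchial epithelium that the labels call wild type, grown in the serum-free medium LHC-9. There were 8 libraries in 4 groups of 2. The Mock group received PBS, the FBG group fibrinogen, the M1-FCP group a preparation labelled Der m 1-derived FCPs, and the αC group the αC domain of fibrinogen. Each agent was given at 4 ng/µl for 4 h, and Der m 1 is the group 1 allergen of a house dust mite. The labels do not spell out FCP, and according to the series title the αC domain derives from the allergen. The sources used here do not give how either was prepared. The series asked how these preparations change adhesion-related expression. The NF-κB genes are set out here because many of them are direct targets of the factor they regulate. The 10 genes and the lists used below were picked with earlier results of these data known.

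NF-κB acts as dimers of 5 related proteins, encoded by RELA, REL, RELB, NFKB1 and NFKB2. In unstimulated cells the dimers are bound by IκB proteins. Receptors for TNF, interleukin-1 and microbial products activate a kinase complex that marks IκB for destruction, and the freed dimers enter the nucleus. Among their targets are their own inhibitors, so that NFKBIA and TNFAIP3 close negative feedback loops within hours. NFKB2 and RELB form the main dimer of a second, slower branch that runs through the kinase encoded by MAP3K14. In airway epithelium the pathway is known for driving chemokines, cytokines and the adhesion molecule ICAM1.

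The promoters are shown because the κB site is the sequence through which these genes are known to be induced. RefSeq sequences (GRCh38.p14) were matched by symbol for 8 of the 10 genes, all but RELB and NFKBIE. The 250 bases before 1 annotated start per gene were searched on both strands. The κB consensus, a 10-base motif, was found in 4 of the 8 windows, those of NFKB1, NFKBIA, TNFAIP3 and BIRC3, and in 5.1% of 27305 RefSeq promoter windows of the same length. No consensus match lay in the windows of NFKB2, TNFAIP2, TNIP1 and SOD2, which says only that these letters are not there. The windows of TNFAIP3, TNFAIP2, TNIP1 and SOD2 lie inside the span that the count files give those genes, since other transcripts start further out. Each sequence is written 5′ to 3′ on the strand of the gene and ends next to the start, with the consensus match in capitals.
NFKB1, chr4:102501109-102501358, plus strand: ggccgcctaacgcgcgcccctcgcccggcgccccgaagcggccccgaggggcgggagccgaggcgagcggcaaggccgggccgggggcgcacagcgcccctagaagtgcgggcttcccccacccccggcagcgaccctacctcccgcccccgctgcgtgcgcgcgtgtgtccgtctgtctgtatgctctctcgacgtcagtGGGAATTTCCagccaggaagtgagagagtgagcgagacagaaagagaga
NFKBIA, chr14:35404750-35404999, minus strand: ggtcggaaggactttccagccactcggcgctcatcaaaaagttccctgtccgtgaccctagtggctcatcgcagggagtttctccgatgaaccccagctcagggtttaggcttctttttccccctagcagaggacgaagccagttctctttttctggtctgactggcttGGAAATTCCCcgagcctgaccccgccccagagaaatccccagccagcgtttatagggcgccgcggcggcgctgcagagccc
TNFAIP3, chr6:137867009-137867258, plus strand: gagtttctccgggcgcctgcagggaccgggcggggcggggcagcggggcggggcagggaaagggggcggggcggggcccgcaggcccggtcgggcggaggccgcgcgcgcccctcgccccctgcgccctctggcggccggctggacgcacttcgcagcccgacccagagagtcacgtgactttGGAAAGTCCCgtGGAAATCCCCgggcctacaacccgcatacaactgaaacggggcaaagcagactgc
BIRC3, chr11:102317234-102317483, plus strand: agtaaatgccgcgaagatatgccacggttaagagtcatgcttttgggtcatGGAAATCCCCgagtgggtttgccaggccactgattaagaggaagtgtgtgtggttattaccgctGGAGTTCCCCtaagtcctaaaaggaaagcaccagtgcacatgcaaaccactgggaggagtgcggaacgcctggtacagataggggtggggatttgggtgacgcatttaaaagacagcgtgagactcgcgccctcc
In NFKB1 the match GGGAATTTCC spans bases -49 to -40 from the start. In NFKBIA the same letters read on the opposite strand, from -81 to -72, so the printed strand shows their reverse complement. TNFAIP3 has a pair of matches on the opposite strand close to each other, GGGACTTTCC at -67 to -58 and GGGGATTTCC at -55 to -46. BIRC3 also has a pair on the opposite strand, GGGGATTTCC at -199 to -190 and GGGGAACTCC at -135 to -126. The match in BIRC3 that lies further out has the same letters as the TNFAIP3 match nearer the start. These matches are a description of the letters, and no binding was measured.

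Depth ran from 15137196 counts in an FBG library to 22258791 in an αC library. Libraries of a pair lay close together over 12260 to 12745 genes per group, those above a count floor and without an annotated copy. Their difference had a mean chi-square of 1.27 to 1.35 per gene, where counting alone gives about 1. The labels call them biological replicates and do not say that they came from separate cultures, so p-values reflect the spread between paired libraries alone, and that spread may be technical. Defining epithelial markers separated Mock and FBG from M1-FCP and αC. The epithelial regulators GRHL2 and TP63 had 0 and 0.0667 CPM in Mock and 21.6 and 79.3 CPM in M1-FCP, and the basal keratin KRT5 had 2.03 and 1580. All 12 epithelial markers were higher in M1-FCP than in Mock (median log2 fold change 5.8), and 9 of 11 mesenchymal markers were lower (median -1.73, 1 higher). The 12 epithelial markers summed to 1310 to 1320 CPM in Mock, 1160 to 1180 in FBG, 4950 to 5030 in M1-FCP and 5000 to 5090 in αC, and the mesenchymal markers to 3770 to 3800, 2470 to 2490, 739 in each and 720 to 731. A response to M1-FCP or αC therefore cannot be told apart from another difference along this division in any comparison of these groups with Mock or FBG. αC against M1-FCP and FBG against Mock lie within its sides. Leukocyte markers summed to 15.2 to 34.7 CPM, mostly CD68, and endothelial markers to 1.08 to 4.36 CPM. In bulk RNA, fewer cells of a type and less RNA per cell cannot be told apart.

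All 10 genes had their highest level in αC, in both libraries, and their second highest in M1-FCP. Against M1-FCP, each of the 10 was higher in αC at an adjusted p under 0.05 (edgeR quasi-likelihood test, Benjamini-Hochberg over 16307 genes), where 4.57% of all tested genes were higher. The median log2 fold change of the 10 was 0.84, beside 0 over all tested genes, and single values ran from 0.35 to 1.49. Against Mock, 10 of 10 were higher in M1-FCP, where 37.3% of all genes were, and 10 of 10 in αC, where 38% were. FBG went the other way, with 7 of 10 lower than Mock, none higher and a background of 26.3% lower. Of all tested genes, 357 (2.19%) were higher both in M1-FCP than in Mock and in αC than in M1-FCP, and all 10 were among them. Both comparisons use the M1-FCP libraries. Since the 10 genes were picked with earlier results known, the shares of all tested genes are printed for description and test nothing about the list.

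**Figure D1:**
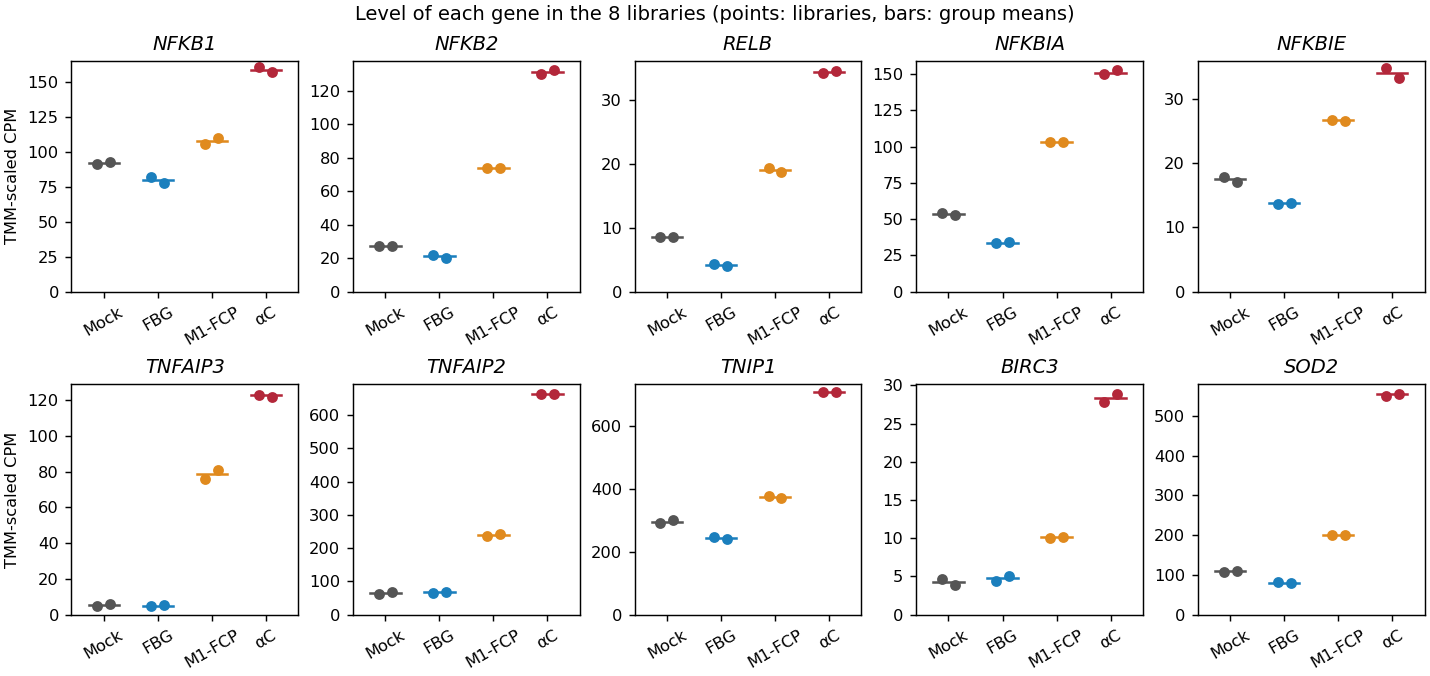
Level of each gene in the 8 libraries, in TMM-scaled CPM on the y axis, with the 4 groups on the x axis, points for libraries and bars for group means (n = 2). In each panel the αC libraries lie highest and the M1-FCP libraries second, while FBG lies below Mock for 7 genes and overlaps it for TNFAIP3, TNFAIP2 and BIRC3.

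Values below are levels in CPM after TMM scaling, and fold changes are log2 values from the edgeR fit. For αC against M1-FCP the error is the standard error of the fit. In the other 5 comparisons that error was smaller than counting error for 8 to 10 of the 10 genes, so the 95% counting interval is printed in its place. Intervals cover counting error only. Coordinates are those of the count files (GRCh38.p14).

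NFKB1, the precursor of a subunit that binds DNA but does not activate on its own (chromosome 4, 102501359 to 102617302), had the smallest differences of the 3 subunit genes in FBG against Mock, M1-FCP against Mock and αC against M1-FCP. Its level was 91.2 and 92.6 CPM in Mock, 82.4 and 77.7 in FBG, 106 and 110 in M1-FCP and 161 and 157 in αC. The groups did not overlap, and the step from M1-FCP to αC was larger than that from Mock to M1-FCP. αC exceeded M1-FCP by 0.56 ± 0.032 (SE, adjusted p = 3.24e-11), a 1.47-fold difference. M1-FCP exceeded Mock by 0.23 (0.17 to 0.3, adjusted p = 2.62e-06), or 0.45 with library size as the only scaling. FBG was below Mock by -0.2 (-0.28 to -0.12, adjusted p = 8.81e-05), and this call ended with library size only (-0.09, adjusted p = 0.0642, the largest over the 16 alternatives).

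NFKB2, the precursor of the subunit that pairs with RELB (chromosome 10, 102394110 to 102402529), moved further. It had 27.2 and 27.3 CPM in Mock, 21.7 and 20.3 in FBG, 73.9 in each M1-FCP library and 130 and 132 in αC. The αC libraries were the highest and the FBG libraries the lowest, with no overlap between groups. The difference of αC from M1-FCP was 0.82 ± 0.04 (adjusted p = 1.29e-12), that of M1-FCP from Mock 1.44 (1.33 to 1.55, adjusted p = 6.28e-18). FBG was lower than Mock by -0.38 (-0.53 to -0.22, adjusted p = 4.49e-06), which shrank to -0.18 once trends with GC content and length were removed.

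RELB, the activating partner of the NFKB2 product (chromosome 19, 45001464 to 45038192), had the lowest level per kb of the 3 subunit genes. Its libraries held 8.54 and 8.59 CPM in Mock, 4.25 and 4.04 in FBG, 19.4 and 18.8 in M1-FCP and 34.2 and 34.6 in αC. RELB had the largest fall of the 10 genes in FBG, to 0.484 of the Mock level, a log2 difference of -1.05 (-1.37 to -0.73, adjusted p = 7.03e-09). Only 3.1% of all tested genes had a lower value in that comparison. In αC it exceeded M1-FCP by 0.85 ± 0.08 (adjusted p = 1.24e-07), and M1-FCP exceeded Mock by 1.16 (0.95 to 1.36, adjusted p = 4.08e-11).

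NFKBIA, encoding IκBα, the main inhibitor and the fastest feedback target of the pathway (chromosome 14, 35401513 to 35404749), had 54 and 52.7 CPM in Mock and 33.6 and 34 in FBG. Its M1-FCP libraries each had 103 CPM, and its αC libraries 150 and 153. The 4 groups were separate, with FBG lowest. FBG lay below Mock by -0.66 (-0.77 to -0.54, adjusted p = 1e-11), or 0.634 of its level, and M1-FCP above Mock by 0.95 (0.87 to 1.03, adjusted p = 2.18e-16). αC exceeded M1-FCP by 0.56 ± 0.033 (adjusted p = 5.09e-11), the same fold as NFKB1.

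NFKBIE, encoding IκBε, a slower inhibitor of the same dimers (chromosome 6, 44258166 to 44265551), had the smallest αC against M1-FCP difference of the 10 genes. It stood at 17.9 and 17.1 CPM in Mock, 13.7 and 13.8 in FBG, 26.8 and 26.6 in M1-FCP and 34.9 and 33.3 in αC. These ranges did not overlap, and the value in αC exceeded that in M1-FCP by 0.35 ± 0.069 (adjusted p = 0.00136), a 1.28-fold difference. Over the 16 alternatives this value ran from 0.28 to 0.39 and stayed called, with a largest adjusted p = 0.0387. In FBG it was lower than in Mock by -0.34 (-0.53 to -0.16, adjusted p = 0.000862), but -0.15 (adjusted p = 0.188, the largest over the alternatives) without the GC and length trends. M1-FCP was above Mock by 0.61 (0.46 to 0.76, adjusted p = 9.37e-08), where the median gene of chromosome 6 was at 0.47. The same chromosome median bears on TNFAIP3 and SOD2. It was 0.01 in αC against M1-FCP, and its part in the M1-FCP result was not tested.

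TNFAIP3, encoding the ubiquitin-editing enzyme A20 that shuts down signalling at TNF and interleukin-1 receptors (chromosome 6, 137866349 to 137883312), had the largest difference between Mock and M1-FCP. Mock held 4.6 and 6.13 CPM (69 and 92 counts) and FBG 4.58 and 5.39 (68 and 80 counts). M1-FCP held 75.9 and 81.1 CPM and αC 123 and 122. The Mock and FBG libraries overlapped, and every M1-FCP and αC library was more than 10-fold above them. M1-FCP exceeded Mock by 3.87 (3.64 to 4.11, adjusted p = 1.67e-14), or 14.6-fold, a value that 97% of all tested genes fell below. αC exceeded M1-FCP by 0.65 ± 0.061 (adjusted p = 9.48e-06), or 1.57-fold. FBG against Mock was -0.11 (-0.44 to 0.23, adjusted p = 0.621). It became 0.11 without Mock replicate 2 and 0.01 without FBG replicate 1, so no direction can be given.

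TNIP1, encoding ABIN1, a ubiquitin-binding partner of A20 (chromosome 5, 151029943 to 151087685), did the reverse, with a small difference between Mock and M1-FCP and a larger one between M1-FCP and αC. It had 291 and 301 CPM in Mock, 246 and 241 in FBG, 379 and 370 in M1-FCP and 710 and 707 in αC. The αC libraries stood far above the other 6, which kept the order FBG, Mock, M1-FCP. The difference between αC and M1-FCP was 0.92 ± 0.018 (adjusted p = 5.1e-20), rank 4 by p among the 16307 genes. M1-FCP was above Mock by 0.34 (0.3 to 0.38, adjusted p = 8.65e-13), or 0.56 with library size only. FBG was below Mock by -0.28 (-0.33 to -0.24, adjusted p = 4.89e-10), or -0.11 without the GC and length trends.

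BIRC3, encoding the ubiquitin ligase cIAP2 of TNF receptor complexes (chromosome 11, 102317484 to 102339403), had the lowest level per kb of the 10 genes and the largest αC against M1-FCP difference. Its level was 4.6 and 3.93 CPM in Mock (69 and 59 counts), 4.45 and 5.05 in FBG (66 and 75 counts), 10 and 10.2 in M1-FCP and 27.8 and 28.9 in αC. Mock and FBG overlapped, and the other groups were separate. αC exceeded M1-FCP by 1.49 ± 0.1 (adjusted p = 9.74e-10), or 2.81-fold. M1-FCP exceeded Mock by 1.24 (0.96 to 1.54, adjusted p = 1.83e-09), or 0.64 without the GC and length trends. For FBG against Mock the value was 0.15 (-0.2 to 0.51, adjusted p = 0.484), and it turned to -0.3 without those trends. At this depth a difference of that size was not detectable.

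TNFAIP2, a TNF-induced gene known for its role in membrane protrusions between cells (chromosome 14, 103121469 to 103137439), had 63 and 66.9 CPM in Mock and 65.8 and 68.9 in FBG. It had 237 and 241 CPM in M1-FCP and 663 and 662 in αC. Mock and FBG overlapped, while the αC libraries lay about 10-fold above both. αC exceeded M1-FCP by 1.47 ± 0.021 (adjusted p = 1.13e-22, rank 2 by p among the 16307 genes), a 2.78-fold difference, and Mock by 3.35 (3.28 to 3.42, adjusted p = 1.03e-28), a 10.2-fold one. M1-FCP exceeded Mock by 1.88 (1.81 to 1.95, adjusted p = 1.25e-23). FBG against Mock was 0.05 (-0.04 to 0.14, adjusted p = 0.355). It was called as higher with library size only (0.17, adjusted p = 0.000961) and without the GC and length trends (0.24, adjusted p = 5.33e-05), while the adjusted p reached 0.961 under other alternatives.

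SOD2, encoding the manganese superoxide dismutase of mitochondria (chromosome 6, 159669069 to 159762281), had 107 and 111 CPM in Mock, 81.7 and 78.5 in FBG, 200 in each M1-FCP library and 551 and 556 in αC. No 2 groups overlapped, and FBG was the lowest. The αC libraries exceeded M1-FCP by 1.47 ± 0.021 (adjusted p = 1.13e-22, rank 3 by p among the 16307 genes), or 2.77-fold. M1-FCP exceeded Mock by 0.88 (0.82 to 0.93, adjusted p = 1.72e-18), which fell to 0.16 (still called) without the GC and length trends. FBG was below Mock by -0.45 (-0.52 to -0.37, adjusted p = 3.97e-11), or -0.84 without those trends. Exons of SOD2 overlap those of WTAP and ACAT2 on the opposite strand and of SOD2-OT1 on its own strand, and the counting used no strand, so reads there cannot be told apart. WTAP had 2892 and 2817 counts in M1-FCP and 3568 and 3531 in αC. ACAT2 had 5699 and 5827 counts in M1-FCP and 5426 and 5399 in αC, while SOD2 went from 4584 and 4583 to 13038 and 13152 counts. SOD2-OT1 had at most 11 counts in a library.

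**Figure D2:**
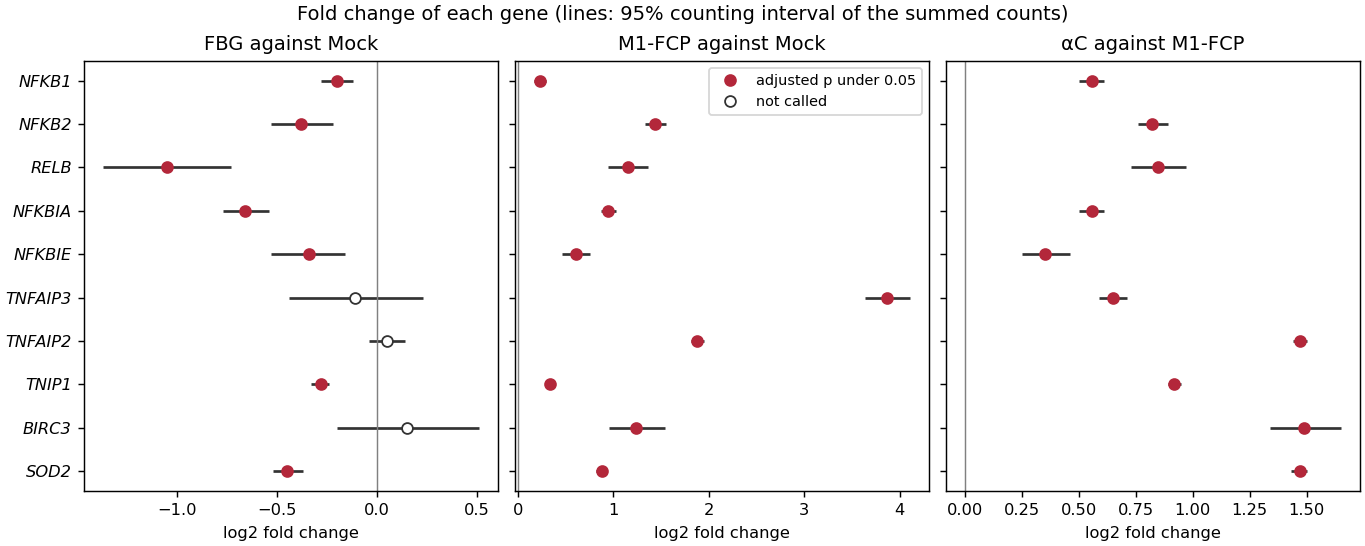
Log2 fold change of each gene (x axis, different range in each panel) for FBG against Mock, M1-FCP against Mock and αC against M1-FCP, with lines for the 95% counting interval, filled points for adjusted p under 0.05 and open points for values not called. TNFAIP3 lies furthest right in M1-FCP against Mock at 3.87, while BIRC3, TNFAIP2 and SOD2 lie furthest right in αC against M1-FCP at 1.47 to 1.49.

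In αC against M1-FCP the 10 genes are given in order of their difference. BIRC3, TNFAIP2 and SOD2 led at 1.49, 1.47 and 1.47, and the range of their pairwise library differences overlapped from one to the next. They were the 3 of the 10 at least 2-fold higher and called, a level reached by 0.307% of tested genes (50 genes). TNIP1 at 0.92 came next and did not overlap RELB at 0.85 in these library differences, while RELB and NFKB2 (0.82) overlapped. The range of library differences is narrower than the error, since the counting interval of RELB (0.73 to 0.97) held that of TNIP1 (0.89 to 0.95). The order of TNIP1 and RELB is therefore not settled. TNFAIP3 (0.65) overlapped NFKB1 (0.56), NFKB1 overlapped NFKBIA (0.56), and NFKBIE (0.35) stood below them. In all 10 genes both αC libraries lay above both M1-FCP libraries, as they did in 26.7% of tested genes. Removing any M1-FCP or αC library lowered the genes called in either direction from 1470 (9.01% of those tested) to between 853 and 909, and the 10 genes stayed called in each such fit. Of 12 epithelial markers 2 were higher and 3 lower here (median -0.03), and of 11 mesenchymal markers 1 was higher and 1 lower (median 0.02). Both lists were called more often than the 9.01% of all tested genes. Called values ran from -0.18 to 0.46 in the epithelial list and from -0.11 to 0.09 in the mesenchymal list. The marker with the largest called difference was TP63 at 0.46 (adjusted p = 9.83e-07).

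The share of the αC difference from Mock that was already present in M1-FCP differed by gene. On the log2 scale it was 85.7% for TNFAIP3, 63.6% for NFKB2, 63.3% for NFKBIE, 63.1% for NFKBIA and 57.7% for RELB. It was 56% for TNFAIP2, 45.4% for BIRC3, 37.4% for SOD2, 29.5% for NFKB1 and 27% for TNIP1. The lower end of this order depends on the processing. Without the GC and length trends the share was 9.83% for SOD2, 30.7% for BIRC3 and for NFKB1 and 35.2% for TNIP1, while that of TNFAIP3 stayed at 85.7%. With library size only, TNIP1 stood at 37.7%, SOD2 at 42.6% and NFKB1 at 44.5%. These shares are descriptive, since both parts use the M1-FCP libraries and the first crosses the division of markers.

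Against Mock, the αC values ran from 0.79 (0.73 to 0.85) for NFKB1 to 4.52 (4.29 to 4.75) for TNFAIP3. Their median was 2.13, beside 0.06 over all tested genes, and 8 of the 10 were at least 2-fold higher and called, where 20.7% of genes were. In M1-FCP against Mock the median was 1.05, beside 0.06, and 5 of the 10 were at least 2-fold higher (background 19.7%). Against FBG, 10 of 10 were higher in M1-FCP, where 32.6% of genes were, and 10 of 10 in αC, where 33.8% were. The medians there were 1.46 and 2.61, beside 0.02 over all genes in each. RELB, the gene with the lowest FBG level relative to Mock, stood at 2.2 (1.93 to 2.49) in M1-FCP and 3.05 (2.79 to 3.33) in αC, against 1.16 and 2 from Mock. The comparisons with Mock share its libraries, as those with FBG share the FBG libraries.

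In FBG against Mock the 7 lower genes were RELB, NFKBIA, SOD2, NFKB2, NFKBIE, TNIP1 and NFKB1, from -1.05 to -0.2. The other 3, TNFAIP3, TNFAIP2 and BIRC3, were not called. The median of the 10 was -0.31, beside 0.02 over all tested genes. It was -0.16 (all genes -0.04) without the GC and length trends and -0.2 (all genes 0.13) with library size only. Markers also moved here, with 7 mesenchymal markers lower and 3 higher of 11 (median -0.24) and 5 epithelial markers higher and 3 lower of 12 (median 0.66), and their part in the result was not tested. In the same 7 genes both FBG libraries lay below both Mock libraries, as they did in 35.4% of tested genes. Without GC and length trends 6 were lower and TNFAIP2 was higher, as was also the case with library size only. RELA, the main activating subunit, was lower as well, at -0.34 (adjusted p = 7.69e-09), from 172 CPM in each Mock library to 140 and 133 in FBG. The IκB family member BCL3 fell by 0.99 (adjusted p = 1.14e-06), whereas REL rose by 0.85 (adjusted p = 1.04e-09).

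**Figure D3:**
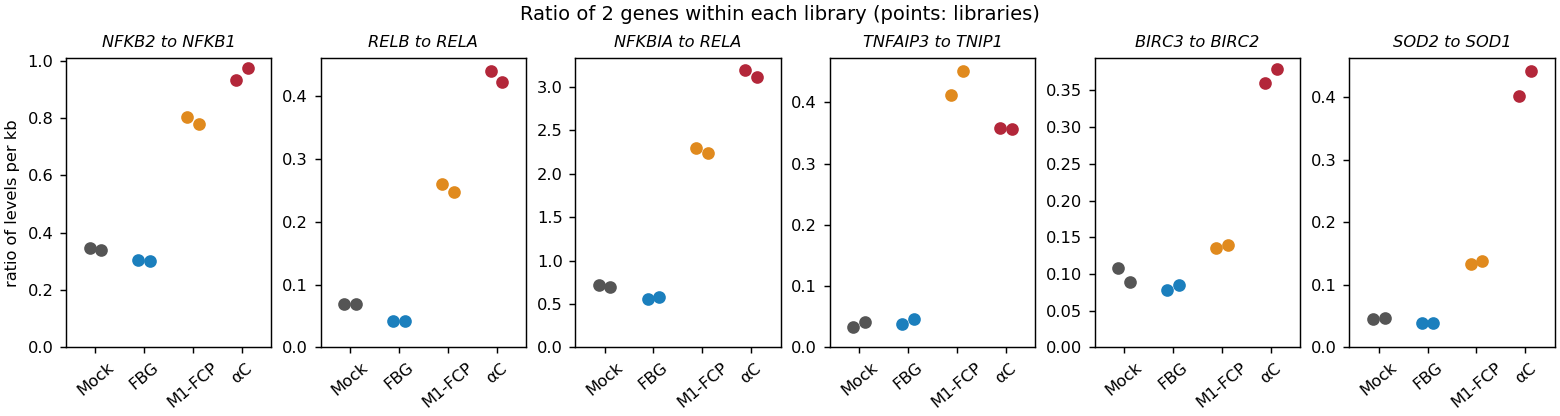
Ratio of levels per kb between 6 pairs of genes within each library (y axis, linear and from 0, with its own scale per panel), with the 4 groups on the x axis and 1 point per library. The ratios of NFKB2 to NFKB1, RELB to RELA, NFKBIA to RELA, BIRC3 to BIRC2 and SOD2 to SOD1 are highest in αC, and that of TNFAIP3 to TNIP1 is highest in M1-FCP.

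Ratios within a library do not depend on scaling between libraries, but trends with GC content and length were not removed from them. The ratios compare levels per kb of merged exons. NFKB2 had 0.345 and 0.341 of the NFKB1 level in Mock, 0.305 and 0.302 in FBG, 0.805 and 0.779 in M1-FCP and 0.933 and 0.975 in αC. The 2 precursors were closest to equal in αC. RELB relative to RELA went from 0.0686 and 0.0689 in Mock and 0.0421 and 0.0419 in FBG to 0.26 and 0.247 in M1-FCP and 0.441 and 0.423 in αC. NFKBIA was below RELA in Mock (0.72 and 0.701) and FBG (0.553 and 0.584), and above it in M1-FCP (2.3 and 2.24) and αC (3.2 and 3.12). Relative to NFKB1, NFKBIA was alike in M1-FCP (2.73 and 2.62) and αC (2.61 and 2.74), whose ranges overlapped, and lower in Mock (1.66 and 1.6) and FBG (1.14 and 1.23).

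TNFAIP3 relative to TNIP1 was lower in αC than in M1-FCP. It was 0.0326 and 0.0419 in Mock, 0.0384 and 0.046 in FBG, 0.412 and 0.451 in M1-FCP and 0.358 and 0.357 in αC. BIRC3 relative to its close paralogue BIRC2 was 0.108 and 0.0894 in Mock, 0.0784 and 0.0847 in FBG, 0.136 and 0.14 in M1-FCP and 0.36 and 0.379 in αC. SOD2 relative to the cytosolic enzyme SOD1 was 0.046 and 0.0464 in Mock, 0.0391 and 0.0388 in FBG, 0.133 and 0.138 in M1-FCP and 0.402 and 0.442 in αC. The SOD2 ratios are low in part by construction, because its merged exons span 17592 bases. These ratios were not tested between groups. Removing GC and length trends lowered the log2 value of M1-FCP against Mock from 1.24 to 0.64 for BIRC3 and from 0.88 to 0.16 for SOD2. The ratios were not recomputed that way.

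**Figure D4:**
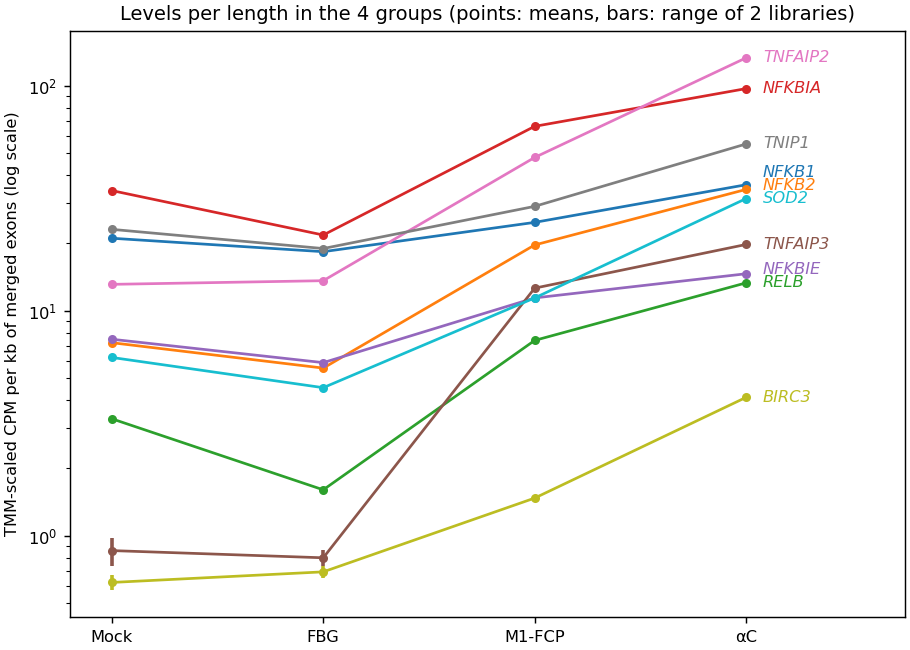
Level per kb of merged exons (TMM-scaled CPM per kb, log scale) of the 10 genes in the 4 groups, with points for group means and bars for the range of the 2 libraries. NFKBIA leads in Mock, FBG and M1-FCP, TNFAIP2 leads in αC, and BIRC3 is lowest in all 4 groups.

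Per kb of merged exons, NFKBIA was the most abundant of the 10 in Mock at 34.2 CPM per kb, followed by TNIP1 at 23 and NFKB1 at 21. TNFAIP2 (13.1), NFKBIE (7.47), NFKB2 (7.21), SOD2 (6.2) and RELB (3.31) came next, and TNFAIP3 (0.859) and BIRC3 (0.62) were lowest. No neighbours in that order overlapped in their library ranges. These ranges leave out counting error, so the order of close neighbours such as NFKBIE and NFKB2 is not settled. FBG kept the order, with TNIP1 (18.9) and NFKB1 (18.3) overlapping and TNFAIP3 (0.798) and BIRC3 (0.691) overlapping. In M1-FCP TNFAIP2 moved to second at 48, behind NFKBIA at 66, and TNFAIP3 to sixth at 12.6. NFKBIE and SOD2, each at 11.4, could not be separated there. In αC TNFAIP2 was first at 133 CPM per kb, above 98.2% of all tested genes, then NFKBIA at 97.1, TNIP1 at 55.1, NFKB1 at 36.3, NFKB2 at 34.6 and SOD2 at 31.5. TNFAIP3 (19.7), NFKBIE (14.6), RELB (13.3) and BIRC3 (4.12) followed, and no neighbours overlapped. The levels of SOD2 and TNIP1 are understated by merged exons of 17592 and 12868 bases, against 1559 to 6877 in the other 8 genes.

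The other genes of the pathway were counted by lists, first in αC against M1-FCP, where 4.57% of all tested genes were higher. Inflammatory targets numbered 27, of which 22 passed the filter, and a gene could pass by its level in αC or M1-FCP alone. Of the 22 tested, 18 were higher and none lower (median 0.88, beside 0 over all genes). The largest were the matrix-associated gene TNFAIP6 at 3.17 ± 0.52 (2 and 6 counts in M1-FCP, 36 and 41 in αC), the colony-stimulating factor gene CSF2 at 2.35 ± 0.52, the acute phase gene SAA2 at 2.33 ± 0.2 and LCN2, encoding an iron-sequestering protein, at 1.72 ± 0.33. Of 5 other subunit and IκB genes 3 were higher, BCL3 at 0.83 ± 0.089, NFKBIZ at 0.37 ± 0.075 and REL at 0.26 ± 0.059. RELA stood at 0.08 (adjusted p = 0.144), with 103 and 105 CPM in M1-FCP and 107 and 113 in αC. NFKBIB had at most 1 count in any library, so it did not pass the filter and was not tested. It also has a copy on an alternate locus. Counting used no multi-mapping option, so reads that fit both places were left out and the level of NFKBIB cannot be given. The tested list genes RNF31, CFB and SAA1 have an annotated copy too. Libraries of a pair differed widely for RNF31 (15 and 186 counts in αC) and SAA1 (577 and 50 in M1-FCP), but not for CFB.

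Upstream components were counted in the same way, beside the same 4.57% of all tested genes higher. Of 13 IκB kinases and upstream kinases 3 were higher in αC than in M1-FCP, the inducible kinase genes IKBKE (0.9 ± 0.089) and MAP3K8 (0.68 ± 0.14) and the adaptor TAB3 (0.2 ± 0.042). IKBKB, the catalytic kinase of the main branch, was at 0.09 (adjusted p = 0.379). Among 15 receptors and adaptors 2 were higher, TRAF3 (0.27 ± 0.046) and TNFRSF1A (0.21 ± 0.026). Of 13 ubiquitin enzymes and other negative regulators 4 were higher and 1 lower, led by ZC3H12A, a ribonuclease that degrades inflammatory messages, at 0.7 ± 0.12. The paralogue BIRC2 was at 0.07 (adjusted p = 0.547). Of 14 other superoxide and peroxide enzymes 2 were higher and 1, SOD1, was lower at -0.17 ± 0.041 (adjusted p = 0.00691), beside 1.47 for SOD2. The difference between lists was not tested.

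**Figure D5:**
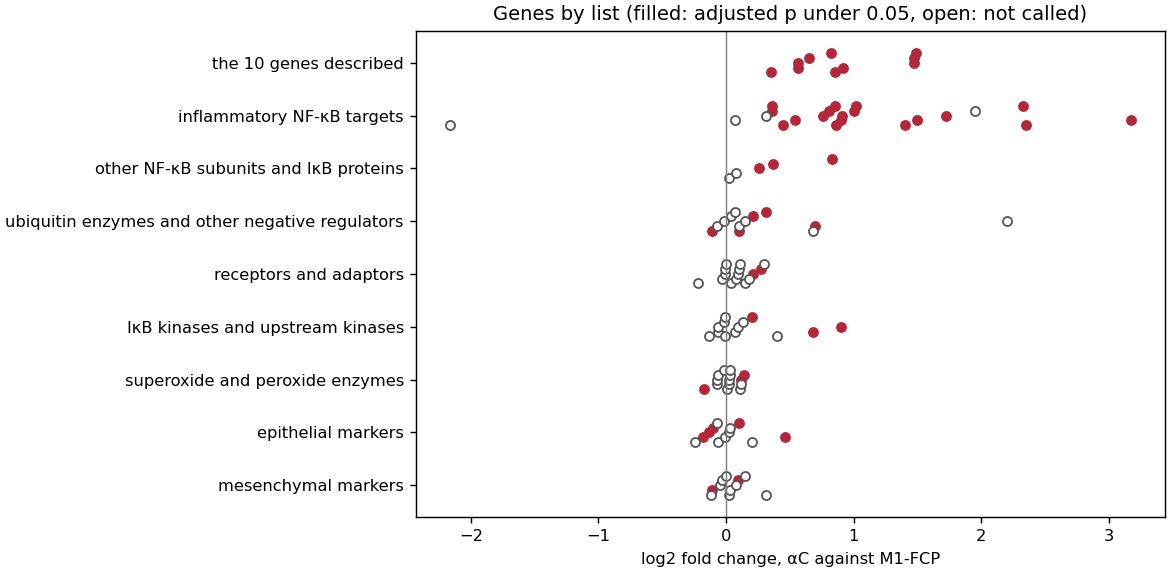
Log2 fold change in αC against M1-FCP (x axis) of the tested genes of each list (rows), 1 point per gene, filled where adjusted p was under 0.05 and open where it was not. All 10 genes described here and 18 of 22 inflammatory targets are filled to the right of 0, while the kinase, receptor, superoxide and marker lists centre near 0.

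In M1-FCP against Mock the neighbouring genes went in both directions, as did all tested genes, of which 37.3% were higher and 36.1% lower. RELA was lower by -0.73 (adjusted p = 2.17e-15) while NFKB1, NFKB2 and RELB were higher, and REL (2.13, adjusted p = 6.59e-18) and NFKBIZ (1.86, adjusted p = 4.55e-15) were higher too. Of the 5 other subunit and IκB genes 3 were higher and 1 lower. All 14 superoxide and peroxide enzymes were lower (median -0.56), led by PRDX5 at -1.16 (adjusted p = 7.35e-20), while SOD2 was higher. With library size only, 10 of the 14 were lower and 1 higher (median -0.34). Of 22 inflammatory targets 14 were higher and 4 lower (median 2.28), with IL1A at 8.64 and IL1B at 8.55, from 0.133 CPM each in Mock to 55.8 and 52.4 CPM in M1-FCP. Kinases (6 higher, 4 lower of 13) and receptors (7 and 5 of 15) were mixed, as were the tested genes as a whole. Negative regulators (9 and 3 of 13, median 0.24) were more often higher than lower, but 6 and 4 (median 0.05) without the GC and length trends. IKBKB was at -0.26 (adjusted p = 0.000265), and -0.04 (adjusted p = 0.566) with library size only.

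In αC against Mock 38% of all tested genes were higher and 36.7% lower. Of 22 inflammatory targets 19 were higher and 1 lower. Of 14 superoxide and peroxide enzymes 13 were lower and none higher (median -0.59), or 9 lower and 1 higher (median -0.36) with library size only. In FBG against Mock 13 of those 14 enzymes were lower (median -0.27), led by PRDX1 at -0.73 (adjusted p = 5.38e-17), and 10 with library size only (median -0.16). There 2 inflammatory targets were higher and 6 lower of 22, a share of lower genes near that of all tested genes, of which 24.2% were higher and 26.3% lower. The chemokine gene CCL2 was furthest down at -3.53 (adjusted p = 1.1e-13). Its levels were 15.4 and 14.3 CPM in Mock and 1.42 and 1.15 in FBG. The ubiquitin-binding regulator TAX1BP1 rose by 0.87 (adjusted p = 2.1e-15). IKBKB was lower by -0.35 (adjusted p = 1.72e-05).

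Genes whose profile over the 8 libraries lay nearest to a member were sought among 9340 genes by the root mean square difference of centred log2 CPM. Nearest to NFKB2 were NFKBIZ (0.186), ZC3H12A (0.196) and the growth factor gene EREG (0.198). NFKBIZ and ZC3H12A are themselves in the lists above. Nearest to BIRC3 were SOD2 (0.232), NFKB2 (0.32) and TNFAIP2 (0.36), all among the 10 genes. Nearest to SOD2 were BIRC3 (0.232), NFKB2 (0.251) and C1QTNF1 (0.305), which had 6.23 CPM in Mock, 4.62 in FBG, 17.1 in M1-FCP and 37.6 in αC. These distances describe 8 libraries in 4 groups and carry no test.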

How the data were processed

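Messenger RNA of 8 BEAS-2B libraries, enriched by a method that the sources used here do not give, was reverse transcribed with random primers, per the labels' protocols. The authors deposited read-pair counts for each gene, unnormalized, from featureCounts over exons without strand or multi-mapping options, per the file headers. The headers name version 1.6.0 of that tool and the submitters' processing notes version 1.6.2, with Trimmomatic 0.39, HISAT2 2.2.1, SAMtools 1.9 and GRCh38.p14. The quasi-likelihood test of edgeR 4.0.16 (robust, TMM, filterByExpr with a minimum count of 10) was run in R 4.3.3 on all 8 libraries in 1 fit, with 4 residual degrees of freedom. The 6 comparisons were each adjusted by Benjamini-Hochberg over 16307 genes, and genes under 0.05 were called. Log2 CPM used a prior count of 2. Counting intervals are exact binomial, at 95%.

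Groups and replicate numbers came from the sample titles. The 10 genes and all lists were chosen with earlier results of these data known. Named beside the 10 genes were RELA, REL, NFKBIB and IKBKB, at most 4 called genes per list with the largest change, and the 3 nearest profiles to NFKB2, BIRC3 and SOD2 among genes with a mean log2 CPM of at least 3. BIRC2 and SOD1, set in ratios, and the genes overlapping SOD2 fall outside that rule and were named after their values were seen. Alternatives were DESeq2 1.42.0, library size only, RLE scaling, no filter, the 2 groups alone, a replicate block, removal of GC and length trends (mgcv 1.9.3), leaving out each library, and, chosen after seeing the data, leaving out genes with an annotated copy.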

Additional observations from a re-analysis of the deposited data

How the results depend on the processing

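In each of the 5 comparisons other than FBG against Mock, the 10 genes kept their direction and call in 160 of 160 results (10 genes under 16 alternatives). In FBG against Mock 152 of 160 did. There TNFAIP3, not called, was at 0.01 with library size only, 0.11 without Mock replicate 2 and 0.01 without FBG replicate 1, and BIRC3, not called, was at -0.3 without GC and length trends. The calls of NFKB1 (library size only) and NFKBIE (GC and length trends removed) ended, and TNFAIP2 became called under both. The cause was not tested. Library size only moved the median of all genes from 0.02 to 0.13 in FBG against Mock, from 0.06 to 0.28 in M1-FCP against Mock and from 0.06 to 0.29 in αC against Mock, and it moved the split of calls in FBG against Mock from 3941 higher and 4285 lower to 5186 and 3010. Without GC and length trends the split was 2691 and 4269 there and 610 and 1270 in αC against M1-FCP, against 745 and 725. Genes called in αC against M1-FCP numbered 1470, but 867 with DESeq2, 2327 without genes that have an annotated copy, 853 to 909 without an M1-FCP or αC library, and 1521 to 1616 without a Mock or FBG library. The cause was not tested. Of the 10 genes, leaving out a library kept 7 called in FBG against Mock and 10 in the other comparisons. Deviations of libraries with equal replicate numbers correlated at -0.0598 to 0.0859 over 6 group pairs. Counting error weakens such correlations, so they cannot show whether libraries were paired. The replicate block left the 10 genes' calls at 7 in FBG against Mock and 10 elsewhere, with 1410 genes called in αC against M1-FCP. Depth is lowest for RELB in FBG, at 63 and 60 counts, and for TNFAIP3 and BIRC3 in Mock and FBG, at 59 to 92 counts per library.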
